A study of Mus musculus with 6 samples.

Results

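Acute-phase proteins are plasma and secreted proteins whose synthesis changes during inflammation, and complement is the cascade of proteins that tags microbes and recruits immune cells. The 8 genes described here encode such proteins and were taken by name from the 57010 genes of a count table: Lcn2, Saa3, Cfb, C3, Cfp, Slpi, Hp and Ptx3. They were chosen with the hypoxic-EV against normoxic-EV comparison already known, so their values in it are a description and carry no p-value. The samples were RAW 264.7 cells, a mouse macrophage line derived from a tumour induced by Abelson leukaemia virus. All 6 samples had received lipopolysaccharide (LPS), a bacterial cell wall component that drives an inflammatory M1 state, and then extracellular vesicles (EVs), membrane particles shed here by tendon stem cells. In 3 samples the vesicle donors had been kept in normoxia (normoxic-EV), and in 3 they had been preconditioned in hypoxia (hypoxic-EV). The labels give no dose, no time, no species of the donor cells and no word on separate cultures, so any p-value refers to the variation among these 6 libraries alone, and that variation may be technical. Macrophages without vesicles or without LPS were not analysed here, and the line stands for a single cell line rather than for tissue macrophages.

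In macrophages exposed to LPS, NF-kB, C/EBP and STAT factors, together with the cytokines interleukin 1 and interleukin 6, are known to switch on many acute-phase genes. Most complement in plasma comes from the liver, but macrophages also make complement locally. In the alternative pathway, C3 is cleaved by a convertase that contains factor B (Cfb) and is stabilised by properdin (Cfp). Lipocalin 2 (Lcn2) withholds iron from bacteria by binding their siderophores, serum amyloid A3 (Saa3) is a secreted lipid-binding protein, and SLPI (Slpi) inhibits neutrophil serine proteases. Haptoglobin (Hp) binds free haemoglobin, and pentraxin 3 (Ptx3) is a pattern recognition protein that binds C1q.

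Of the 8 genes, 5 had enough counts to pass the filter on low counts (Lcn2, Cfp, Slpi, Saa3 and C3), and 3 did not (Hp, Cfb and Ptx3). Lcn2 was by far the most abundant per length and was 3.59-fold lower with hypoxic-EV. C3 was 1.42-fold lower, Slpi 1.18-fold lower and Saa3 1.16-fold lower, while Cfp was 1.16-fold higher. Hp and Cfb had at most 8 counts in a library, and Ptx3 had 0 in each. For Cfb, which another gene overlaps, a low level and uncounted reads cannot be told apart.

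The upstream sequences of the 5 expressed genes are shown because 4 of them held the same short motif. They are the 250 bases before the gene start in the RefSeq promoter table (GRCm38.p6, a different build from that of the counts), and capitals mark every match to a motif searched.
Lcn2, chr2:32387740-32387989, minus strand: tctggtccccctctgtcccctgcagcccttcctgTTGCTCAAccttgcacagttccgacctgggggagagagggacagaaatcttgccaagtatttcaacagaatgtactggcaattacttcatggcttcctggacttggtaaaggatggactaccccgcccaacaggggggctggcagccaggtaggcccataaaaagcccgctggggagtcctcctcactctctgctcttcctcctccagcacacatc
Cfp, chrX:20931556-20931805, minus strand: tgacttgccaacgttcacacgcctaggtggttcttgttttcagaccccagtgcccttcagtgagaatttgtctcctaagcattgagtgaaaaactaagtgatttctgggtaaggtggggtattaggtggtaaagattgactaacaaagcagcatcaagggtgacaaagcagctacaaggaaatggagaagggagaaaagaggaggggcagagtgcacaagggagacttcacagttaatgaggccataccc
Slpi, chr2:164356508-164356757, minus strand: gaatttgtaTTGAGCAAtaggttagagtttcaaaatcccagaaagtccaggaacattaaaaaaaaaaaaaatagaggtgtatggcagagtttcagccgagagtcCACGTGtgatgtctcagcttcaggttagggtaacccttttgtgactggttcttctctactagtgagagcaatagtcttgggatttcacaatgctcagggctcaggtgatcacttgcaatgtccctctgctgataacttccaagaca
Saa3, chr7:46715677-46715926, minus strand: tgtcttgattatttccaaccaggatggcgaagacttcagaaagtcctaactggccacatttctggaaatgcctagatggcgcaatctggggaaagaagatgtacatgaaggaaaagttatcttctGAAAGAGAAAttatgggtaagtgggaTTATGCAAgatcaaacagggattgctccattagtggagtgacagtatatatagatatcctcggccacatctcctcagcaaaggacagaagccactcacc
C3, chr17:57228137-57228386, minus strand: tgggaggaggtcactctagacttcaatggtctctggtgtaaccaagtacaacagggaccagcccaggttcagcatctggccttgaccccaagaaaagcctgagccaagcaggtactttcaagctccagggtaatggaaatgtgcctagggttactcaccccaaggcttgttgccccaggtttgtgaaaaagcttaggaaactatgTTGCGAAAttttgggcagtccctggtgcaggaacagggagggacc

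Of the 8 genes, 6 had an entry in that table, with Ptx3 beside the 5 shown. Positions count from the RefSeq gene start as base 0. That start was not compared with the start of the annotated gene that was counted, which for Slpi spans 164195990 to 164231015 on GRCm39. Windows of 300 bases, 250 before the start and 50 after it, were searched on both strands for 6 motifs. The C/EBP pattern TTGCNNAA was found in 5 of the 6 windows, and 10.8% of all 32851 windows held it. It lay at -216 to -209 from the start in Lcn2, -241 to -234 in Slpi, -99 to -92 in Saa3, -45 to -38 in C3 and -57 to -50 in Ptx3. The IRF consensus was found in Saa3 at -125 to -116, and 3.44% of all windows held it. The HIF core ACGTG was found in Slpi at -146 to -141 in 2 overlapping matches on opposite strands, against 19.6% of all windows. The NF-kB consensus matched in 1 of the 6 windows, that of Ptx3, in 2 overlapping places at the start itself, against 4.51% of all windows. The STAT pattern TTCNNNGAA (8.3% of all windows) and the AP-1 pattern TGANTCA (7.81%) had no match in the 6 windows. Cfp held none of the 6 motifs. A match describes letters and not a bound site, and a motif missing here may lie outside the window.

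**Figure D1:**
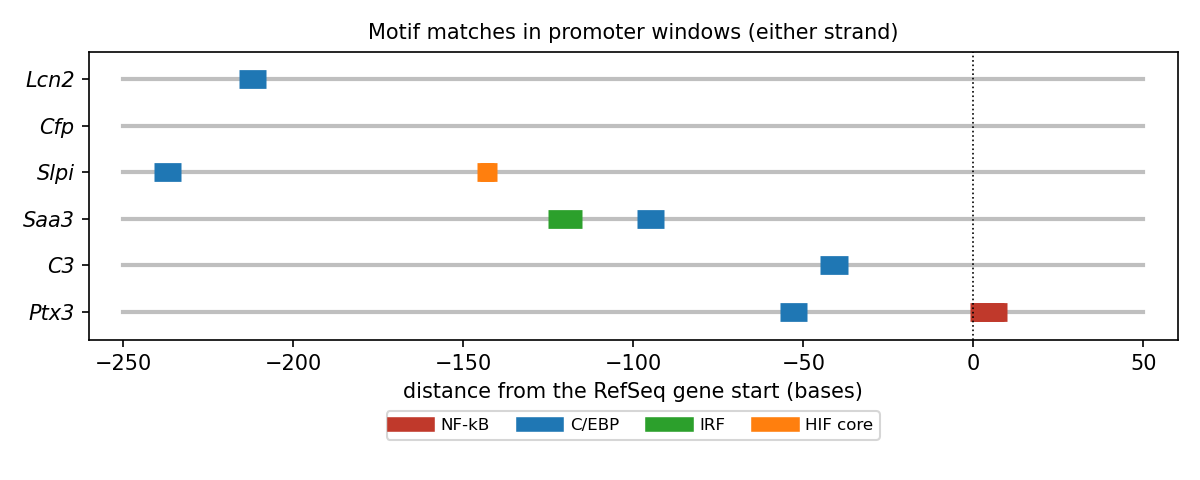
Positions of motif matches on either strand in the windows of the 6 genes with a RefSeq promoter entry, in bases from the gene start (dotted line). Blocks of the C/EBP pattern stand in 5 of the 6 windows, at distances from -241 to -38, and Cfp has no block.

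The libraries held between 16751665 and 23422328 counts, and 13303 genes passed the filter. Of 13 macrophage markers, 12 had a count in all 6 libraries, and Mertk, a receptor for dying cells, had 4 and 7 counts over the groups. They summed to between 10646 and 11143 CPM with normoxic-EV and between 8885 and 9221 CPM with hypoxic-EV, where CPM are counts scaled to a common library size by the trimmed mean of M values. Most of each sum was 1 gene, Lyz2, at 7946 ± 208 and 6091 ± 176 CPM (SD, n = 3). The markers went both ways. Of the 12 that passed the filter, 4 were higher, 6 lower and 2 not called at an edgeR adjusted p under 0.05. Among all tested genes, 22.7% were called higher and 21.5% lower. Csf1r, for example, was higher and Adgre1 lower. In bulk RNA, fewer cells of a type and less RNA per cell cannot be told apart. Several of the 8 proteins are also made by neutrophils or hepatocytes, so markers of other cells were summed in the same way. The 14 neutrophil granule markers summed to between 246 and 282 CPM with normoxic-EV and between 111 and 135 CPM with hypoxic-EV. Nearly all of that was S100a8, which inflamed macrophages also express. The 12 markers other than S100a8 and Cebpe summed to 0.838 to 1.20 CPM and 0.868 to 1.42 CPM, and Elane, Ctsg, Ltf, Mmp8 and Retnlg were at 0 counts in all 6 libraries. The 12 hepatocyte markers summed to 2.93 to 3.80 CPM and 3.42 to 3.87 CPM, with Ttr, Fga, Apoh, Cyp2e1 and Serpina1a at 0. Most of that was Trf, at 2.03 ± 0.110 and 3.06 ± 0.343 CPM, the only 1 of them to pass the filter. The others went both ways at few counts, of which Apoa2 had the most, 34 and 13 over the groups. The 18 tendon and stromal markers summed to 1.26 to 2.98 CPM and 1.46 to 2.01 CPM, with 8 of them at 0, Col1a2, Col3a1 and Tnmd included. The 10 lymphocyte markers summed to 0.479 to 0.701 CPM and 0.868 to 1.12 CPM, with 4 at 0. The largest part of that was Cd79a, at 17 and 47 counts over the groups (0.304 ± 0.147 and 0.789 ± 0.0327 CPM). It was the only 1 of them to pass the filter. Two-sided exact permutation tests of these sums gave p = 0.1 for macrophage, neutrophil and lymphocyte markers, the smallest that 3 against 3 allow, p = 0.3 for hepatocyte and p = 0.8 for tendon and stromal markers. The part of the macrophage, neutrophil and lymphocyte sums in the results was not tested.

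Lcn2 (ENSMUSG00000026822, chromosome 2, 32274645 to 32278264, minus strand, GRCm39) had 35269, 35947 and 45847 counts in normoxic-EV replicates 1 to 3. In hypoxic-EV replicates 1 to 3 it had 9576, 10408 and 14945. Scaled, these were 2110, 2099 and 2037 CPM with normoxic-EV and 565, 531 and 643 CPM with hypoxic-EV. Every normoxic-EV library was thus above every hypoxic-EV library. The means were 2082.0 ± 39.1 and 579.8 ± 57.4 CPM (SD, n = 3), and the log2 fold change was -1.84 (SE 0.0586). Only 38 of the 13303 tested genes had a more negative fold change. Lcn2 took 0.204% of all counts (95% Wilson interval 0.202% to 0.206%) in the lowest normoxic-EV library and 0.0638% (0.0628% to 0.0648%) in the highest hypoxic-EV library. Such intervals cover counting error only, because PCR copies cannot be separated from distinct molecules. By FPKM, the deposited count per transcript length and library total, Lcn2 ranked between 37 and 39 among all genes with normoxic-EV and between 181 and 220 with hypoxic-EV. It was also the 1 gene of the 8 in the authors' deposited table of changed genes, at a log2 fold change of -1.84. The smallest absolute log2 fold change in the authors' deposited table was 1.0008, above that of each of the other 4 tested genes.

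The complement genes C3 and Cfp differed in direction. C3 (ENSMUSG00000024164, chromosome 17, 57510970 to 57535136, minus strand), the central component of the cascade, had 28.8, 26.4 and 27.2 CPM in normoxic-EV replicates 1 to 3 and 17.6, 20.6 and 19.8 CPM in hypoxic-EV replicates 1 to 3. The groups did not overlap, and the log2 fold change was -0.51 (SE 0.0781), from 27.5 ± 1.24 to 19.3 ± 1.54 CPM (SD, n = 3). Properdin is the one known positive regulator of the alternative convertase. Its gene Cfp (ENSMUSG00000001128, chromosome X, 20791693 to 20797794, minus strand) had 183, 182 and 178 CPM with normoxic-EV and 217, 196 and 216 CPM with hypoxic-EV. Here the hypoxic-EV libraries were the higher ones, again without overlap, with 180.9 ± 2.63 against 209.6 ± 11.5 CPM and a log2 fold change of 0.21 (SE 0.0487).

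Factor B, the protease of the alternative convertase, could hardly be read. Cfb (ENSMUSG00000090231, chromosome 17, 35075350 to 35081494, minus strand) had 0, 2 and 1 counts with normoxic-EV and 1, 2 and 2 with hypoxic-EV. The ratio of hypoxic-EV to normoxic-EV was 1.57, with a 95% exact counting interval of 0.305 to 10.1. The annotated gene Gm20547 covers Cfb from base 35075388 on the same strand and had 0 counts. The sources used here do not say how reads lying in more than 1 gene were counted, so a low Cfb count and uncounted Cfb reads cannot be told apart.

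Of the genes for secreted defence proteins, Slpi (ENSMUSG00000017002, chromosome 2, 164195990 to 164231015, minus strand) had 63.7, 64.2 and 63.5 CPM with normoxic-EV and 53.0, 51.9 and 56.3 CPM with hypoxic-EV. The hypoxic-EV libraries were all lower, at 53.7 ± 2.30 against 63.8 ± 0.367 CPM (SD, n = 3, log2 fold change -0.24, SE 0.0551). Saa3 (ENSMUSG00000040026, chromosome 7, 46361422 to 46365124, minus strand) had 29.6, 23.6 and 25.2 CPM with normoxic-EV and 21.4, 22.7 and 22.9 CPM with hypoxic-EV. The groups did not overlap, but the lowest normoxic-EV library was only just above the highest hypoxic-EV library. Its log2 fold change was -0.22 (SE 0.0829), and -0.12 without normoxic-EV replicate 1.

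Haptoglobin and pentraxin 3 were near or at the floor. Hp (ENSMUSG00000031722, chromosome 8, 110301760 to 110305804, minus strand) had 5, 2 and 4 counts with normoxic-EV and 6, 8 and 4 with hypoxic-EV. The groups overlapped, and the ratio of hypoxic-EV to normoxic-EV was 1.54 (95% exact counting interval 0.689 to 3.61). Ptx3 (ENSMUSG00000027832, chromosome 3, 66127331 to 66133226, plus strand) had 0 counts in each of the 6 libraries, and a count of 0 allows up to 3 counts, or between 0.128 and 0.179 CPM in a library. No difference between the groups was detectable for Hp, Cfb or Ptx3 with these counts.

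edgeR's quasi-likelihood test called 5 of the 5 tested genes at an adjusted p under 0.05, 4 of them lower and 1 higher, where it called 44.2% of all tested genes, 21.5% lower and 22.7% higher. The groups did not overlap in CPM in the same 5 genes, as in 52.8% of all tested genes, 26.6% higher and 26.1% lower. Nothing is read from these counts, because the genes were chosen on this comparison and the filter removed the 3 low ones. The call on Saa3 was lost in 6 of 11 alternatives, 4 of them with 1 library left out (without normoxic-EV replicates 1 or 3, or hypoxic-EV replicates 1 or 3). With libraries scaled to their ribosomal protein counts, the median log2 fold change of all genes moved from 0.00 to -0.14. On that scale Lcn2 stood at -1.98, C3 at -0.64, Slpi at -0.38, Saa3 at -0.36 and Cfp at 0.08, the last 0.22 above that median. Calls were not recomputed on that scale.

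**Figure D2:**
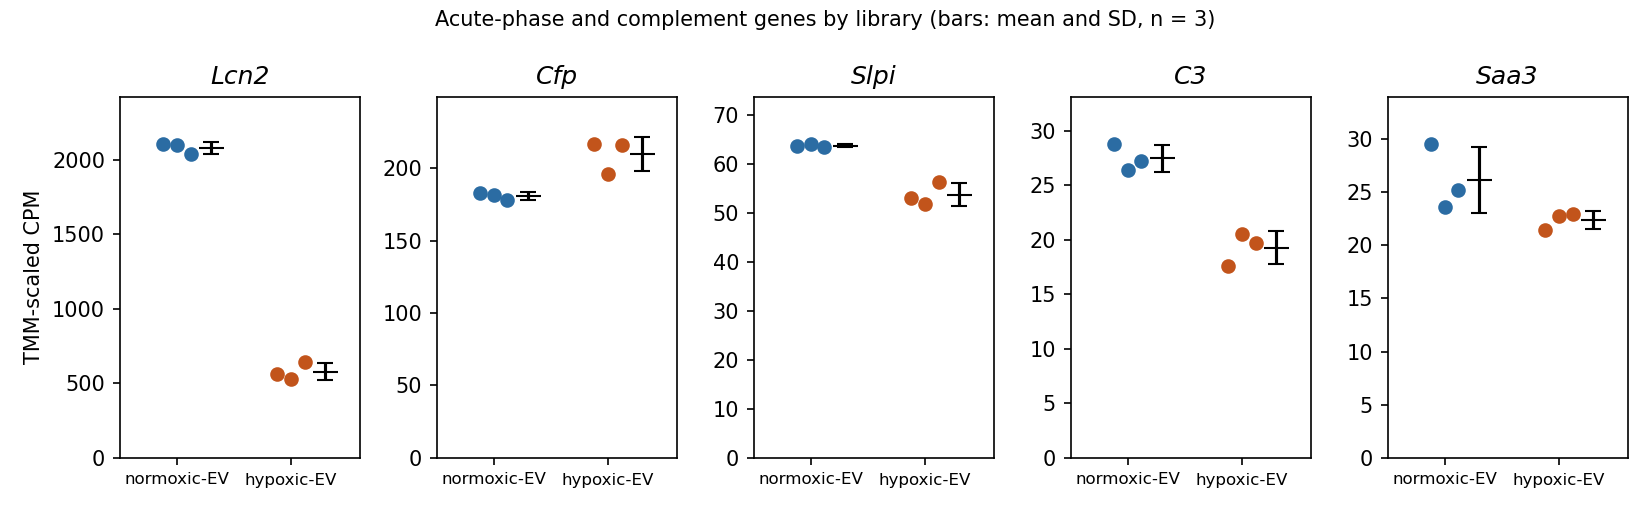
TMM-scaled CPM of the 5 tested genes in each library (points, linear axes from 0), with the mean and SD over 3 libraries (bars). The Lcn2 points lie at 2037 to 2110 CPM with normoxic-EV and 531 to 643 CPM with hypoxic-EV, and Cfp is the gene whose hypoxic-EV points are the higher ones.

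Levels of different genes can be compared only per length, for which the deposited FPKM values were used. The order was the same in all 6 libraries: Lcn2, Cfp, Slpi, Saa3, C3, Hp, Cfb, Ptx3. The places of Hp, Cfb and Ptx3 rest on at most 8 counts in a library. In normoxic-EV replicate 2, Hp and Cfb had 2 counts each, so only length set their order there. The place of Cfb also holds only if its reads were not left uncounted. In FPKM, Lcn2 stood at 793 ± 14.3 with normoxic-EV and 221 ± 21.3 with hypoxic-EV (SD, n = 3), and Cfp at 104 ± 1.41 and 121 ± 7.44. Slpi stood at 54.0 ± 0.413 and 45.5 ± 1.85 FPKM, Saa3 between 9.06 and 11.3 and between 8.32 and 8.73, and C3 at 5.34 ± 0.226 and 3.75 ± 0.261. Hp was between 0.0728 and 0.252 FPKM, and Cfb between 0 and 0.0414. No neighbours in this order overlapped within a group, except that Cfb and Ptx3 were both listed at 0 in normoxic-EV replicate 1. Lcn2 made up 82.0 ± 0.137% of the summed FPKM of the 8 genes with normoxic-EV and 55.2 ± 1.58% with hypoxic-EV. The sum of the other 7 genes was 174 ± 2.23 and 179 ± 8.53 FPKM, a difference smaller than the spread within hypoxic-EV. The ratio of Lcn2 to Cfp went from 7.62 ± 0.0351 to 1.83 ± 0.129.

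**Figure D3:**
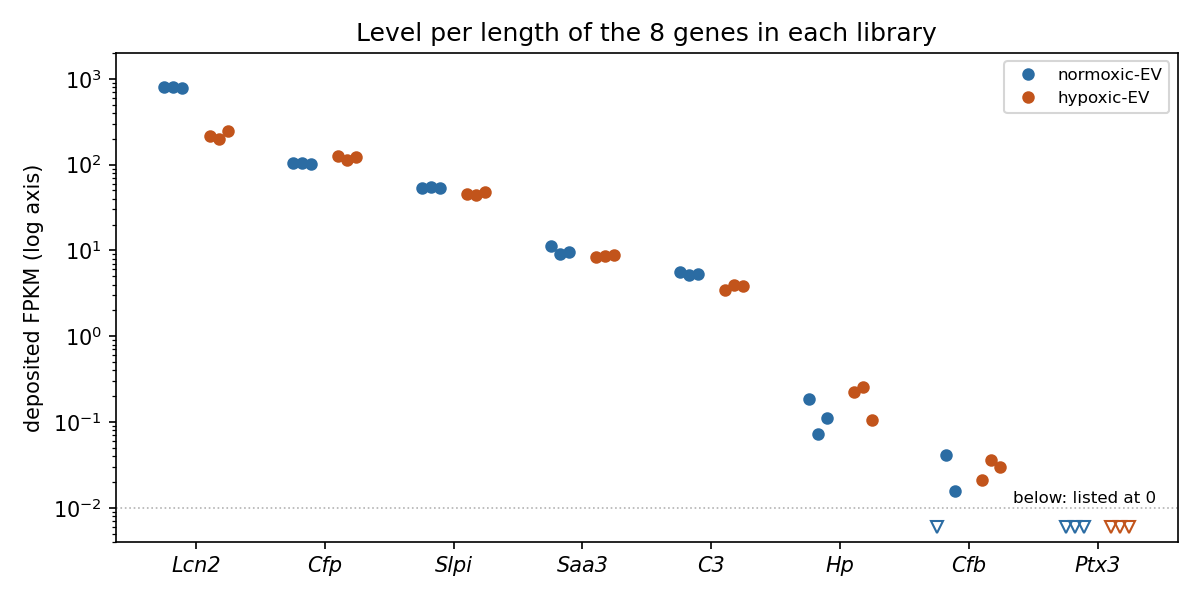
Deposited FPKM of the 8 genes in each library on a log axis, with triangles for libraries listed at 0. The genes keep 1 order in every library, from Lcn2 at 201 to 801 FPKM down to Ptx3 at 0, apart from Cfb and Ptx3 both at 0 in normoxic-EV replicate 1. The places of Hp, Cfb and Ptx3 rest on at most 8 counts in a library.

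For each tested gene, the protein-coding gene nearest in pattern was sought among 9600 others, by Euclidean distance between log2 CPM profiles over the 6 samples, each centred on its own mean. Hcar2, a receptor gene for hydroxybutyrate, was nearest to Lcn2 at a distance of 0.122, with 88.4 ± 3.47 and 25.9 ± 2.55 CPM (SD, n = 3). The nearest to C3 was Atp6v1c1, a proton pump subunit gene, at 0.0845. Those nearest to Slpi and Cfp were Mgat1, a glycosyltransferase gene, at 0.0326 and Bcl2l13, a mitochondrial BCL2 family gene, at 0.0401. The nearest to Saa3 was Immp1l, a mitochondrial peptidase gene, at 0.0897. With 2 groups of 3, this measure mostly reflects the fold change.

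The wider complement system was sparsely expressed in these cells. Of 20 other genes of the classical and lectin pathways, 4 had 0 counts, 7 were below the filter and 9 were tested, of which 2 rose and 1 fell (median log2 fold change 0.10, against 0.00 for all tested genes). Among all tested genes, 22.7% rose and 21.5% fell. The recognition genes C1qa, C1qb and C1qc were below the filter. Colec12, a scavenger receptor collectin gene, rose from 263 ± 11.6 to 332 ± 20.8 CPM (SD, n = 3, edgeR adjusted p = 1.54e-05), and C1ra, a protease gene of the C1 complex, from 8.92 ± 0.983 to 12.3 ± 1.05 CPM (edgeR adjusted p = 0.00207). C1ra has a near-identical copy, C1rb, with which reads may be shared. Masp2, a protease gene of the lectin pathway, fell by 0.58 on the log2 scale (edgeR adjusted p = 0.0053), but Tardbp lies across the gene on the opposite strand with 6404% of the Masp2 count. Fcna, C1rl and C2, the most abundant that were not called, had log2 fold changes of 0.36, 0.10 and -0.55. Across C2 lie Zbtb12 on the opposite strand, with 1871% of the C2 count, and Gm20547 on the same strand. Of 8 other genes of the alternative and terminal pathways, 3 had 0 counts and 4, among them Cfd, were below the filter. The 1 tested, C8g, was not called (log2 fold change -0.38, edgeR adjusted p = 0.393) and overlaps the far more abundant Fbxw5.

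Of 16 complement inhibitor genes, 5 were tested, of which 1 rose and 2 fell (median -0.25). Across all tested genes, 22.7% rose and 21.5% fell. Cr1l, which encodes the rodent membrane inhibitor Crry, fell from 243 ± 8.14 to 205 ± 8.50 CPM (SD, n = 3, edgeR adjusted p = 0.000254). Cd59a, encoding a membrane inhibitor of the terminal complex, fell from 5.01 ± 0.512 to 3.13 ± 0.255 CPM, and Clu, encoding the fluid-phase inhibitor clusterin, rose from 23.9 ± 2.12 to 32.9 ± 0.716 CPM. Cd46, a membrane cofactor gene, was not called (log2 fold change -0.29).

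The list of complement receptors, which also holds C1q-binding and endocytic proteins such as C1qbp, Calr, Cd93 and Lrp1, had 12 genes. Of these, 10 were tested, 7 rose and 1 fell (median log2 fold change 0.30, against 0.00 for all tested genes), where 22.7% of all tested genes rose and 21.5% fell. The called genes numbered 6 instead of 8 without normoxic-EV replicate 1 or without hypoxic-EV replicate 2. The 1 that fell was C3ar1, the receptor gene for the C3 fragment C3a, at 522, 518 and 512 CPM with normoxic-EV and 228, 222 and 241 CPM with hypoxic-EV. Its normoxic-EV libraries were all above the hypoxic-EV libraries, and it fell by 1.17 on the log2 scale (SE 0.0462, edgeR adjusted p = 5.75e-14). C5ar1, the main C5a receptor gene, rose from 28.2 ± 1.07 to 34.9 ± 2.63 CPM (SD, n = 3, edgeR adjusted p = 0.00131). Itgax and Itgam, encoding the alpha chains of complement receptors 4 and 3, rose by 0.86 and 0.16 on the log2 scale, and Itgb2, their shared beta chain, was not called (log2 fold change 0.04). The Itgam call was lost without normoxic-EV replicate 1 or hypoxic-EV replicate 2 (edgeR adjusted p between 0.0793 and 0.106). Lrp1, an endocytic receptor gene, and C1qbp rose by 0.57 and 0.28, and Calr was not called (log2 fold change -0.10), though it was called lower by DESeq2 and with library totals alone. The remaining 2 that rose, C5ar2 and Cd93, were named after their values were seen and had means of at most 0.878 CPM in a group, and the Cd93 call was lost in 4 of 11 alternatives, among them without normoxic-EV replicates 1 or 3 and hypoxic-EV replicate 1.

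Acute-phase genes outside the 8 were largely silent. Of 36 listed, 12 had 0 counts, 19 were below the filter, Saa1 and Saa2 among them, and 5 were tested, of which 1 rose and 2 fell (median 0.03). For all tested genes, the shares were 22.7% higher and 21.5% lower. Cp, encoding the copper-binding ferroxidase ceruloplasmin, stood at 80.1, 81.4 and 80.5 CPM with normoxic-EV and 47.9, 53.2 and 54.7 CPM with hypoxic-EV. It fell by 0.63 on the log2 scale (SE 0.0569, edgeR adjusted p = 1.27e-08), with Hps3 on the opposite strand at 61.9% of the Cp count. Cd14, the LPS co-receptor gene, fell from 947 ± 26.7 to 855 ± 29.7 CPM (SD, n = 3), a call lost without normoxic-EV replicate 1 or 2 (edgeR adjusted p 0.0639 and 0.0552). Trf, the transferrin gene, named after its values were seen, rose from 2.03 ± 0.110 to 3.06 ± 0.343 CPM, a call lost by DESeq2 (adjusted p = 0.0637) and without hypoxic-EV replicate 3 (edgeR adjusted p = 0.0713). Mt1 and Mt2, the metallothionein genes, had log2 fold changes of 0.13 and 0.03 and were not called, though Mt1 was called higher without normoxic-EV replicate 1, without hypoxic-EV replicate 2 and with no filter.

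Among relatives of Slpi and other protease inhibitors, 11 of 25 genes were tested, of which 3 rose and 5 fell (median -0.20). As given above, 22.7% of all tested genes rose and 21.5% fell. Wfdc17, which shares the whey acidic protein domain with Slpi, stood at 260, 223 and 216 CPM with normoxic-EV and 71.6, 68.9 and 85.3 CPM with hypoxic-EV. It fell by 1.63 on the log2 scale (SE 0.0733, edgeR adjusted p = 3.7e-13). Whether its fold change differed from that of Slpi was not tested. Stfa3, a stefin gene in a cluster of similar copies, fell by 1.31 and Cstb, encoding cystatin B, by 0.20, the latter call lost without normoxic-EV replicate 1 (edgeR adjusted p = 0.064). Serpinb2, named after its values were seen, fell by 1.39 from 1.30 ± 0.326 CPM, and the fifth that fell, Grn, is given with the partners of the 8 proteins. Serpinb8, an intracellular serpin gene, rose from 12.8 ± 0.528 to 17.8 ± 1.44 CPM (SD, n = 3, edgeR adjusted p = 0.00023). Cst3, the cystatin C gene, also named after its values were seen, rose by 0.14, a call lost without normoxic-EV replicates 2 or 3 or hypoxic-EV replicates 1 or 3. Serpinb6a, Serpinb9 and Stfa2 were not called. The genes for the proteases that SLPI inhibits, Elane and Ctsg, were at 0 counts.

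The list of receptors and partners of the 8 proteins held 22 genes, of which 15 were tested, 5 rose and 4 fell (median 0.01). By comparison, 22.7% of all tested genes rose and 21.5% fell. Mmp9, whose protein forms a complex with lipocalin 2, fell from 15.4 ± 0.638 to 6.62 ± 0.300 CPM (SD, n = 3, edgeR adjusted p = 4.62e-09). Slc22a17, a proposed lipocalin 2 receptor gene, had 36 and 40 counts over the groups and was not called. Hmox1, the haem oxygenase gene downstream of haemoglobin uptake, rose from 775 ± 38.5 to 1209 ± 60.3 CPM (edgeR adjusted p = 1.69e-09), and Cd163, the receptor gene for haptoglobin and haemoglobin, was at 0 counts. Grn, encoding progranulin, which SLPI protects from cleavage, fell from 2303 ± 49.5 to 1913 ± 120.3 CPM (edgeR adjusted p = 0.000181). Anxa2 and Scarb1, the latter a receptor gene for serum amyloid A, rose by 0.29 and 0.33, and P2rx7 fell by 0.28. Tlr4, Plscr4 and Selp, named after their values were seen, had log2 fold changes of 0.14, 0.93 and -0.57 and were called. The Tlr4 call was lost by DESeq2 and without any 1 normoxic-EV library or hypoxic-EV replicate 2. The Plscr4 call was lost by DESeq2 and without normoxic-EV replicates 1 or 2 or hypoxic-EV replicate 3. Tlr2, Plscr1 and Fgf2 were not called.

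The list of inducers and transcription regulators holds cytokines, their receptors and kinases, and transcription factors, and also the feedback inhibitor Socs3 and the glucocorticoid receptor gene Nr3c1. Of its 32 tested members, 21 fell, 4 rose and 7 were not called (median log2 fold change -0.27, against 0.00 for all tested genes). In all tested genes, 21.5% fell and 22.7% rose. The decrease of several of the cytokine and NF-kB genes was known when the list was made, so nothing is read from the count in this list. Il6, the interleukin 6 gene, stood at 38.5, 43.97 and 41.9 CPM with normoxic-EV and 2.18, 3.83 and 4.09 CPM with hypoxic-EV, and fell by 3.59 on the log2 scale (edgeR adjusted p = 8.73e-15). Il1a and Lif, further cytokine genes, fell by 1.05 and 1.11, and Il1b fell from 5.82 ± 1.17 to 2.86 ± 0.314 CPM. Jak2, a kinase gene of cytokine receptors, fell from 243 ± 7.83 to 145 ± 8.63 CPM (SD, n = 3, edgeR adjusted p = 1.6e-10), and Nfkb2, an NF-kB subunit gene, by 0.73, with Psd across it at 26.8% of its count. Nfkbiz encodes a nuclear co-factor known to be needed for LPS induction of Lcn2 in mouse macrophages. It was named after its values were seen and fell from 212 ± 9.95 to 132 ± 3.17 CPM (edgeR adjusted p = 2.85e-10). Any link between its fall and that of Lcn2 was not tested. The C/EBP factor genes, also named after their values were seen because of the motif above, moved both ways. Cebpb, Cebpd and Cebpg fell by 0.29, 0.48 and 0.23, and Cebpa and Cebpe rose by 0.58 and 0.34. The Cebpb call was lost by DESeq2 and without normoxic-EV replicate 1 or hypoxic-EV replicate 2, and the Cebpe call without normoxic-EV replicate 2 or hypoxic-EV replicates 1 or 3. Jak1, Il6st and Tyk2 were not called, though Il6st was called lower without hypoxic-EV replicate 2.

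**Figure D4:**
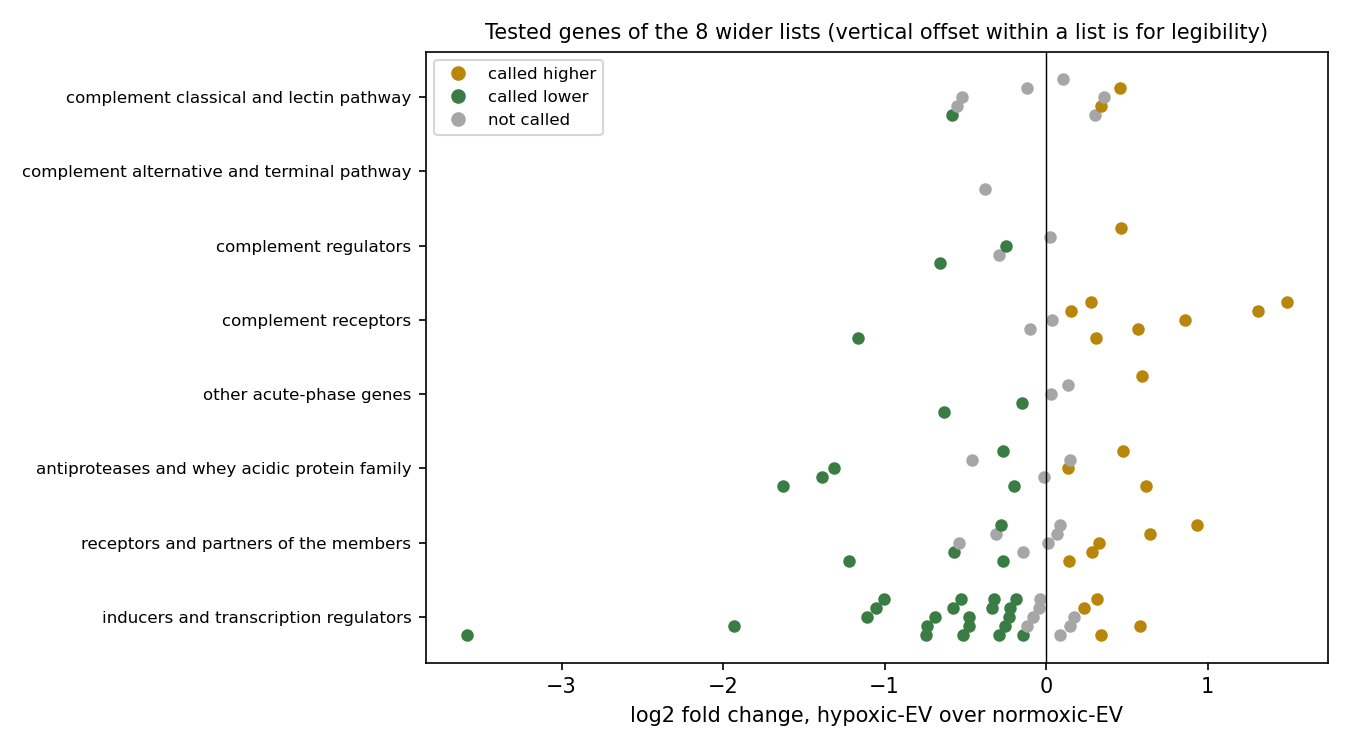
Log2 fold change (hypoxic-EV over normoxic-EV) of each tested gene of the 8 wider lists, coloured by edgeR's call at an adjusted p under 0.05. Among inducers and transcription regulators 21 genes were called lower, down to Il6 at -3.59, and among complement receptors 7 were called higher and 1, C3ar1 at -1.17, lower. Of all tested genes, 22.7% were called higher and 21.5% lower.

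The direction of each of the 5 tested genes was the same under every alternative run, though the size of Saa3 and Cfp moved most in proportion. Without each library in turn, Lcn2 ran from -1.92 to -1.78, C3 from -0.55 to -0.45, Slpi from -0.28 to -0.22, Saa3 from -0.29 to -0.12 and Cfp from 0.19 to 0.26 in log2 fold change.

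**Figure D5:**
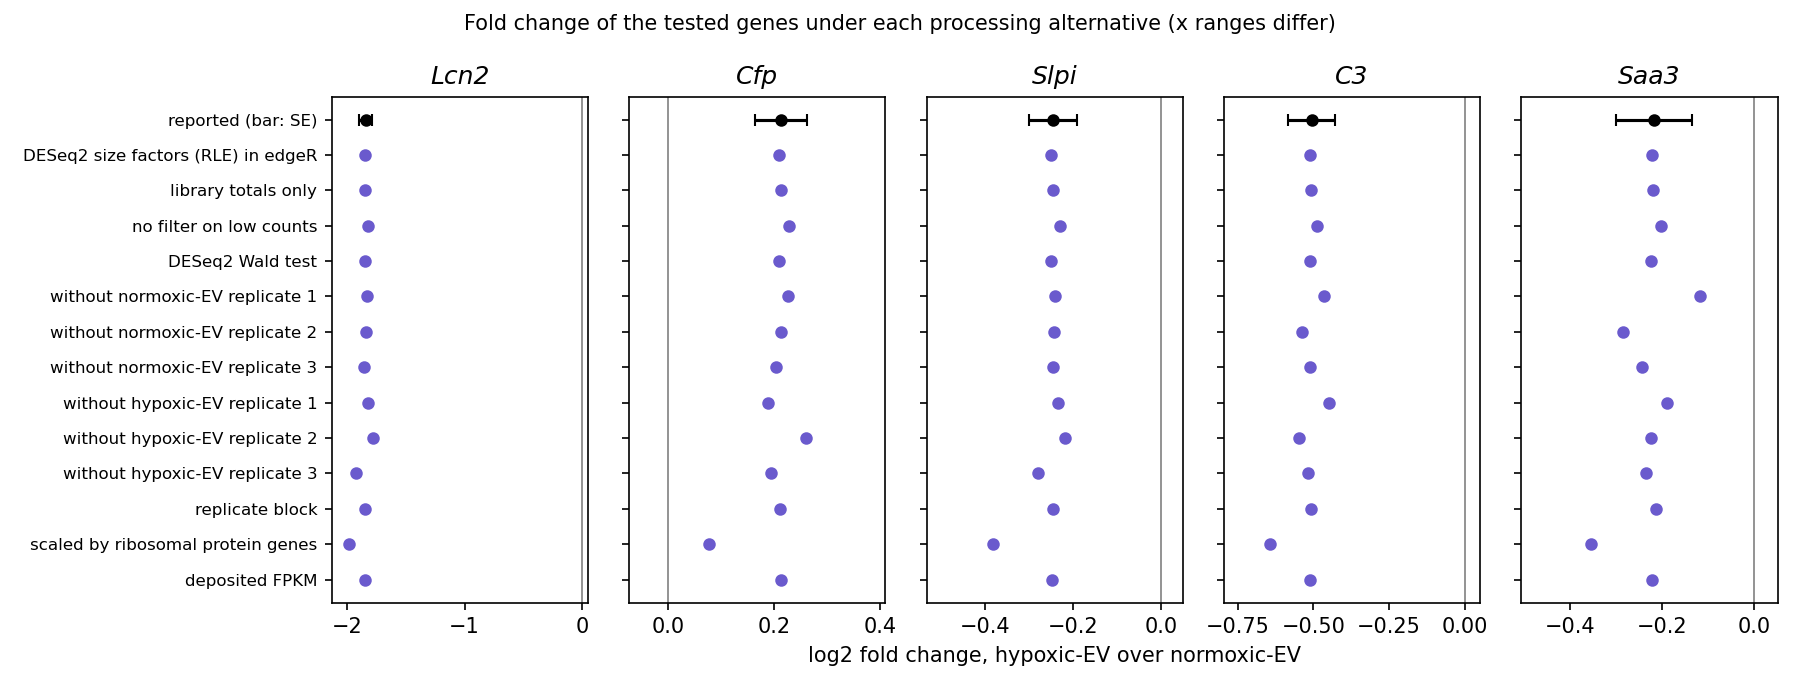
Log2 fold change of the 5 tested genes as reported (black, bar SE) and under each processing alternative (violet), with different x ranges. No point crosses 0, and the points of Cfp and Saa3 nearest to 0 are at 0.08 under ribosomal scaling and -0.12 without normoxic-EV replicate 1.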

How the data were processed

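Per the labels' protocols, TruSeq libraries of poly(A) RNA were sequenced paired-end on the HiSeq platform. Alignment to GRCm39 and counting used HISAT2 and featureCounts, with DESeq2 also named, per the submitters' processing notes. Versions, annotation, strand setting and the treatment of reads in several genes: not given in the sources used here. The authors deposited whole-number counts and FPKM values for 57010 genes, and in all 26398 genes with a count each FPKM was its count over the library total and a fixed length, within a relative tolerance of 1e-06. The authors also deposited log2 fold changes of the genes they called. Counts were filtered with filterByExpr (minimum count 10, minimum total 15), scaled by TMM and tested with edgeR 4.0.16 in R 4.3.3 (two-sided quasi-likelihood F-test, Benjamini-Hochberg adjustment over 13303 genes, threshold 0.05). The SE is the log2 fold change divided by the square root of F. DESeq2 1.42.0 was an alternative. The edgeR step was tested on simulated data. Pairs of libraries of a group differed by a chi-square per degree of freedom of 2.72 to 5.84, more than sampling noise, so each was counted as 1 sample. This does not show that they came from separate cultures. All 232 symbols of the lists matched the table, 1 of them by gene identifier. The members and lists were chosen with earlier results of these data known. Beside the 8 genes, the rule named from each wider list up to 6 called genes of largest change that reached 5 CPM in either group, and the 3 most abundant that were not called. Some genes of the lists are counted but not reported here by name.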

Additional observations from a re-analysis of the deposited data

How the results depend on the processing

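Calls were recomputed under 11 alternatives. Ribosomal scaling and the deposited FPKM were not among them and gave fold changes only. All 132 recomputed counts of calls stayed within 1.5 times their reported value. All genes called ran from 5121 to 5866 with other size factors, filters, tests or the block, against 5877. Without each library in turn they ran from 4993 to 5778. Of the recomputed fold changes of the 5 tested genes, 62 moved by less than 1 SD between libraries and none changed sign. That SD was each gene's own on the log2 scale, in the group where it was larger. The other 3 were those of C3, Cfp and Slpi under ribosomal scaling. Lcn2 and Saa3 were lowered by a similar amount on that scale, but their libraries spread more. No pairing by replicate number was seen. Deviations from the group means correlated across genes between -0.0177 and -0.0156 for same-numbered libraries. For differently numbered libraries they correlated between -0.0377 and 0.0536. With 3 libraries per group, such values cannot exclude a pairing. With the replicate block, 5662 genes were called, and no call on a gene of these lists changed. For genes at a few counts, depth limits any statement to the counting intervals given, which do not cover Cfb reads that may have gone uncounted. Where a call was lost, the cause was not tested.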

Other observations

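The spread between libraries differed among the 8 genes and can be set beside counting error. For Lcn2, the coefficient of variation of the CPM was 1.88% with normoxic-EV and 9.90% with hypoxic-EV, where counting alone gives 0.506% and 0.927%. For Slpi with normoxic-EV it was 0.576%, below the 2.89% that counting gives. For Saa3 it was 11.8% with normoxic-EV and 3.66% with hypoxic-EV, against 4.53% and 4.73% from counting. For Hp it was 46.9% and 39.7%, close to the 52.2% and 40.8% from counting.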
